A study of Homo sapiens with 9 samples.

Results

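The genes described here are 8 chemokine ligands that colon epithelial cells can make: CXCL1, CXCL2, CXCL3, CXCL8, CXCL16, CCL5, CCL20 and CCL28. They were taken by symbol, and all 8 were among the 31558 genes of the count table. The genes were chosen by values measured in these same samples. Differences between CRLM1-OE and Ctrl were known when the list was drawn up, and it is not stated which of the other values were used as well. Fold changes of the 8 genes are therefore given as a description, with standard errors and without p-values, in all 3 comparisons. Counts of genes that pass the thresholds of the study are part of that description, and nothing is read from them.

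The samples came from HCT116, a human colorectal cancer (CRC) cell line, transfected with a pTSB plasmid that expresses the long noncoding RNA CRLM1 (CRLM1-OE). The first control group received the plasmid without an insert (Ctrl), and the second a plasmid with the antisense sequence of CRLM1 (Anti). Whether these samples were transiently transfected or stably selected is not given in the sources used here. Each group had 3 samples, called biological replicates by the study, and whether these came from separate transfections or clones is not given in the sources used here, so p-values concern only variation between these samples. The edgeR fit shares its estimate of spread over genes, so standard errors and p-values do not measure the spread of a single gene alone.

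Polyadenylated RNA was sequenced, with total counts of 33302292 to 44514692 per sample, so that a floor of 3 counts lay at 0.0674 to 0.0901 CPM (counts relative to the library total, counting error only). The CRLM1 gene had between 32751 and 38704 counts in CRLM1-OE samples, 0 in every Ctrl sample and between 1540 and 1951 in Anti. The use of strand in counting is not given, so CRLM1 and its antisense sequence cannot be told apart in the Anti counts. The label of an epithelial line was checked against 12 markers of colon epithelium, whose summed level was 4850 to 4983 FPKM in CRLM1-OE, 5521 to 5559 in Ctrl and 4573 to 4627 in Anti. EPCAM, CDH1, CDX2, KRT8, KRT18, KRT19 and KRT20 had a mean of at least 10 counts in each group, while VIL1, CDX1, LGALS4, TSPAN8 and CEACAM5 stayed at 10 counts or fewer in every sample. Summed markers of leukocytes reached 2.4 to 2.5 FPKM in CRLM1-OE, 2.01 to 2.1 in Ctrl and 1.65 to 1.89 in Anti. PTPRC had no more than 2 counts and CD3E was not listed. CD68 (107 to 167 counts), CSF1R (20 to 49) and ITGAM (18 to 43) had a mean of at least 10 counts in each group. Summed markers of stroma and endothelium reached 2.18 to 2.56, 1.23 to 1.32 and 1.32 to 1.45 FPKM in the same order, and most of these counts were from COL1A1. VWF had 7 to 35 counts, and COL1A2, COL3A1 and DCN had at most 3. These sums moved with the groups, and their part in the chemokine values was not tested.

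Chemokines are small secreted proteins that guide leukocytes along a gradient through G protein-coupled receptors. CXCL1, CXCL2, CXCL3 and CXCL8 carry the Glu-Leu-Arg (ELR) motif, bind the receptor CXCR2 (CXCL8 also CXCR1) and recruit neutrophils. They are classical targets of NF-kB, induced in epithelium by TNF, IL-1 and microbial products. CXCL16 is made as a transmembrane protein and binds CXCR6 on T cells, CCL5 attracts T cells and monocytes, CCL20 binds CCR6 on dendritic cells and lymphocytes, and CCL28 binds CCR10 on plasma cells and CCR3 on eosinophils.

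CXCL8, CXCL1, CXCL3 and CXCL2 lie in this order on chromosome 4 of GRCh38, within 358.7 kb that also hold 5 other chemokine genes. In GENCODE version 44, CXCL8 runs from 73740519 to 73743716 and CXCL1 from 73869393 to 73871308 on the forward strand. CXCL3 runs from 74036589 to 74038807 and CXCL2 from 74097040 to 74099196 on the reverse strand. CXCL16 (4733533 to 4739928) and CCL5 (35871491 to 35880793) are on the reverse strand of chromosome 17, CCL20 (227805739 to 227817564) on the forward strand of chromosome 2, and CCL28 (43376645 to 43412391) on the reverse strand of chromosome 5. CXCL1, CXCL2 and CXCL3 are close copies, with transcripts that were 90.9% (CXCL1 and CXCL2), 81.7% (CXCL1 and CXCL3) and 83.6% (CXCL2 and CXCL3) identical over their aligned bases. No stretch of 151 nt, the read length, was identical between a member and another member, and within the 4 mismatches of the alignment 2.93% of stretches in CXCL1, 6.114% in CXCL2 and 3.135% in CXCL3 could match another of the members. Reads from these stretches could be assigned to a neighbouring copy, so the split among CXCL1, CXCL2 and CXCL3 is less certain than their sum.

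The promoters are shown because the ELR ligands and CCL20 share a sequence in them, the core of the site that NF-kB binds. Each stretch holds 250 bases before and 50 bases from the annotated start (RefSeq, GRCh38.p14), and capitals mark GGAANNNCC or its reverse complement. The RefSeq starts of CXCL3, CXCL8 and CCL20 lie inside the GENCODE genes given above, most deeply for CCL20. Motif positions are counted from the RefSeq starts. The 5 promoters with a match are given.

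CXCL1 promoter, chr4:73869143-73869442, forward strand: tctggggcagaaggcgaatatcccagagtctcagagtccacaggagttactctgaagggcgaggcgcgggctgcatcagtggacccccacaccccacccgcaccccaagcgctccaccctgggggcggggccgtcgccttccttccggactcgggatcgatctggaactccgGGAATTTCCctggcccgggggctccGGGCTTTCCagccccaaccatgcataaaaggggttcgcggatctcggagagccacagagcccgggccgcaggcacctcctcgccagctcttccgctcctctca

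CXCL2 promoter, chr4:74099146-74099445, reverse strand: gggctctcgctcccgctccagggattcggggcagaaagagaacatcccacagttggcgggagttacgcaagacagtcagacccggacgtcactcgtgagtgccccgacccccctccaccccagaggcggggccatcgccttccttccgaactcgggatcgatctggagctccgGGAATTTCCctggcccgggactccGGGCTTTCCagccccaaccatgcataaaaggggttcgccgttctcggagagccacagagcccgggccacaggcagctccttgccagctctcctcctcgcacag

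CXCL3 promoter, chr4:74038640-74038939, reverse strand: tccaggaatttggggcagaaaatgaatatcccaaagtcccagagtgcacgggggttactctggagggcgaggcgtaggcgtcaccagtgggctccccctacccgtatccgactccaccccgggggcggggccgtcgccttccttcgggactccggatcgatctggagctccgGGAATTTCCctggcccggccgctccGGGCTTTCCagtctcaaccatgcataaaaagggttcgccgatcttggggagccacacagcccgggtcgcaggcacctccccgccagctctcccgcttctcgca

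CXCL8 promoter, chr4:73740319-73740618, forward strand: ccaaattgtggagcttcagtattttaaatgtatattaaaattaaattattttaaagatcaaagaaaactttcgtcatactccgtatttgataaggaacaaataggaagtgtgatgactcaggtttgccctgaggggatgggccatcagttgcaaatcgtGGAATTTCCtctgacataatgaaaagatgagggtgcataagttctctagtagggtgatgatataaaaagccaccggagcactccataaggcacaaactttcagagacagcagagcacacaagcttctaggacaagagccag

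CCL20 promoter, chr2:227813592-227813891, forward strand: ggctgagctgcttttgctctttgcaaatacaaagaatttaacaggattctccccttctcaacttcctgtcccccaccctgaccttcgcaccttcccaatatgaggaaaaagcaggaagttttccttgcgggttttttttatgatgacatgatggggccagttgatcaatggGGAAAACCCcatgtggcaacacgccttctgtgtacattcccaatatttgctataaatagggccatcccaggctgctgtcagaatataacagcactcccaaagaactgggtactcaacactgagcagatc

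The core was found at -78 to -70 and at -53 to -45 bases from the start in CXCL1 and in CXCL3, and at -77 to -69 and -53 to -45 in CXCL2. CXCL8 held it at -91 to -83, and CCL20 at -79 to -71. Of the 35116 promoters of the same length in the reference, 20.1% held the core on either strand. The distal site of CXCL1, CXCL2 and CXCL3 and the site of CXCL8 had the same 9 letters, GGAATTTCC, which match on both strands, while CCL20 had GGAAAACCC. CCL28, with a pair of annotated starts, held no match in either window, and CXCL16 and CCL5 were not in the table of promoters.

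The NF-kB consensus of 10 letters, which overlaps the core, was met in CXCL1, CXCL2, CXCL3 and CCL20 and in 5.91% of all promoters. An AP-1 site (TGANTCA, both strands) was found at -137 to -131 in CXCL8 and in 7.71% of all promoters, and a C/EBP site (TTGCNNAA, both strands) at -188 to -181 in CXCL2 and in 10.5%. TATAAA was found at -31 to -26 in CXCL8 and at -29 to -24 in CCL20, and in 11.5% of all promoters. The promoters of CXCL1, CXCL2 and CXCL3 were 85.1% (CXCL1 and CXCL2), 86.6% (CXCL1 and CXCL3) and 83.6% (CXCL2 and CXCL3) identical over aligned bases, so their matches are not separate observations. A match is a description of letters and was not tested for binding.

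**Figure D1:**
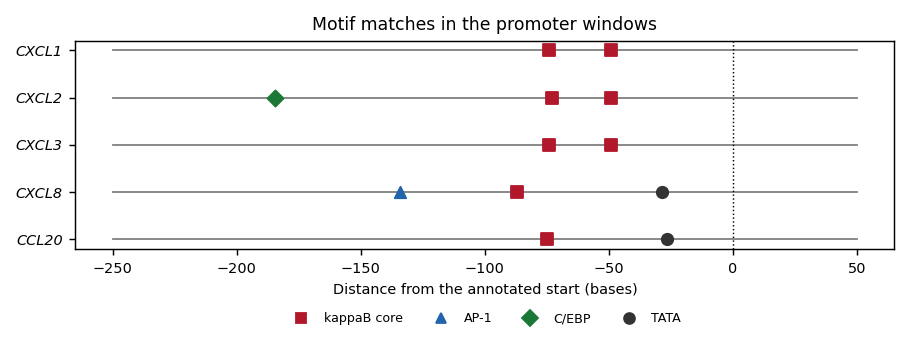
Positions of motif matches (symbols) in the promoter windows of 5 chemokine genes, with distance from the annotated start in bases on the x axis and 1 line per gene. The squares, which mark the kappaB core, lie between -91 and -45 in all 5 windows, and a triangle (AP-1) is seen only in CXCL8 among these windows.

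CRLM1-OE cells had less mRNA of the neutrophil-attracting ligands than either control, and Anti cells had more than Ctrl cells. The summed level of CXCL1, CXCL2, CXCL3 and CXCL8 was 20.3 ± 0.343 FPKM (SD, n = 3) in CRLM1-OE samples, 37.5 ± 1.53 in Ctrl and 61.1 ± 1.05 in Anti. The lowest and highest sums were 19.89 and 20.57, 36.0 and 39.05, and 60.19 and 62.26 FPKM, so the 3 groups did not overlap. The share of all genes whose groups separate in this way was not counted, so nothing is read from non-overlap here or below. In these bulk samples, fewer cells that express a gene and less RNA per cell cannot be told apart.

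CXCL1, the most abundant of the ELR ligands, had 9.19, 8.52 and 8.51 FPKM in CRLM1-OE, 18.54, 18.38 and 18.79 in Ctrl and 30.42, 28.71 and 29.71 in Anti. Every CRLM1-OE sample was below every Ctrl sample, and every Anti sample was above both groups. The log2 fold change of CXCL1 was -1.20 (standard error 0.066) in CRLM1-OE against Ctrl and -1.80 (standard error 0.059) against Anti.

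CXCL2, a close copy of CXCL1, had 2.42, 2.44 and 2.14 FPKM in CRLM1-OE, 3.66, 5.69 and 4.84 in Ctrl and 7.64, 7.89 and 7.83 in Anti. The groups were apart in the same order, with the widest spread in Ctrl, where replicate 1 was lowest. Its log2 fold change was -1.12 (standard error 0.12) against Ctrl and -1.78 (standard error 0.10) against Anti. Without Ctrl replicate 2 the value against Ctrl was -0.96, and with library totals -0.98, both under the 2-fold limit.

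CXCL3, the third copy, had 3.48, 3.40 and 4.34 FPKM in CRLM1-OE, 5.43, 7.43 and 6.38 in Ctrl and 10.41, 10.14 and 10.71 in Anti. Again no group overlapped another, and Ctrl replicate 1 was the lowest of its group. The log2 fold change was -0.88 (standard error 0.10) against Ctrl, under the 2-fold limit, and -1.52 (standard error 0.093) against Anti. Without CRLM1-OE replicate 3 the value against Ctrl was -1.01, past that limit.

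CXCL8, the ligand of both neutrophil receptors, had 5.22, 5.53 and 5.58 FPKM in CRLM1-OE, 8.37, 7.55 and 7.35 in Ctrl and 13.79, 13.45 and 12.67 in Anti. All CRLM1-OE samples were lower than all Ctrl samples, and these were lower than all Anti samples. Its log2 fold change was the smallest of the ELR ligands, at -0.63 (standard error 0.069) against Ctrl and -1.34 (standard error 0.060) against Anti.

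CXCL8 thus took a larger part of the ELR ligands in CRLM1-OE. Its share of the summed FPKM was 26.9% ± 1.07 (SD, n = 3) in CRLM1-OE samples, 20.8% ± 2.17 in Ctrl and 21.8% ± 0.843 in Anti. The lowest CRLM1-OE share, 25.7%, was above the highest in Ctrl, 23.2%, and in Anti, 22.3%. The share of CXCL1 was 43.2% ± 1.96 in CRLM1-OE samples, 49.6% ± 2.29 in Ctrl and 48.4% ± 0.646 in Anti, also without overlap between CRLM1-OE and the controls. The shares of CXCL2 (11.5%, 12.6% and 12.7%, in the order CRLM1-OE, Ctrl, Anti) and CXCL3 (18.4%, 17.1% and 17.0%) overlapped between groups.

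**Figure D2:**
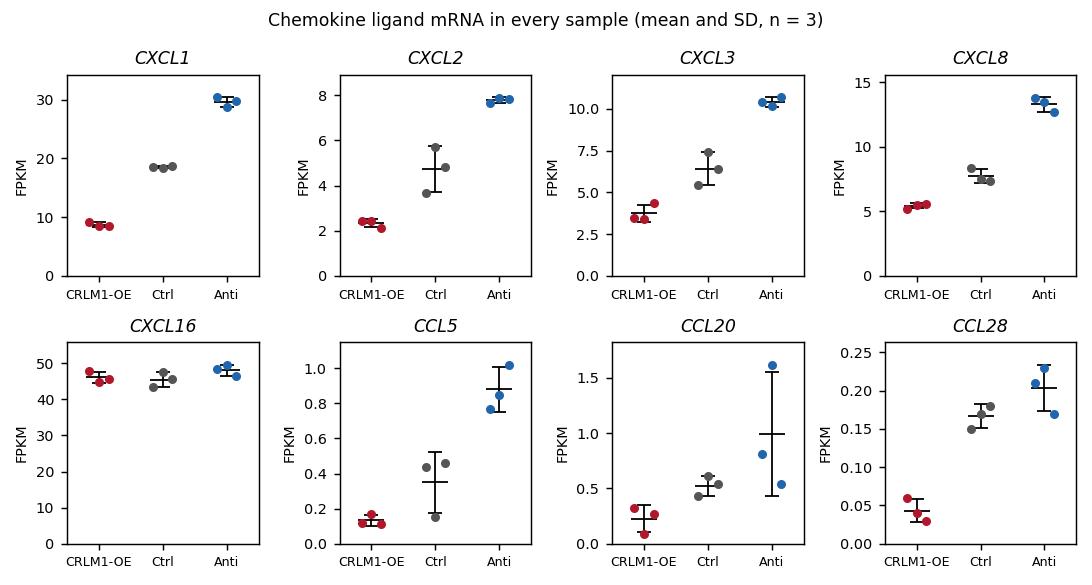
FPKM (y axis, linear from 0, a separate scale for each gene) of the 8 chemokine ligands in each sample, by group on the x axis. Points are samples, and the bars give the mean and SD (n = 3). CXCL1, CXCL2, CXCL3 and CXCL8 are lowest in CRLM1-OE and highest in Anti without overlap, while the CXCL16 samples lie between 43.35 and 49.43 FPKM in all groups.

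CXCL16, the membrane-anchored ligand, stood apart from the others in level and in pattern. It had 47.74, 44.87 and 45.54 FPKM in CRLM1-OE, 43.35, 47.59 and 45.49 in Ctrl and 48.28, 49.43 and 46.37 in Anti, and the groups overlapped. The log2 fold change was -0.095 (standard error 0.029) against Ctrl and -0.11 (standard error 0.027) against Anti. The sign against Ctrl depended on the scaling, since FPKM averaged 46.1 ± 1.50 (SD, n = 3) for CRLM1-OE against 45.5 ± 2.12 for Ctrl, and the log2 fold change was 0.047 with library totals. CXCL16 made up 69.0% ± 0.593 of the summed FPKM of the 8 ligands in CRLM1-OE samples, 54.1% ± 0.204 in Ctrl and 43.2% ± 0.756 in Anti.

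The CC ligands were near the lower end of what these libraries can measure. CCL5, the T cell and monocyte attractant, had 8, 9 and 7 counts in CRLM1-OE, 31, 9 and 26 in Ctrl and 50, 52 and 58 in Anti. Anti samples were above all others, while Ctrl replicate 2 had as many counts as the highest CRLM1-OE sample. The FPKM of CCL5 was 0.133 ± 0.0321 (SD, n = 3), 0.35 ± 0.173 and 0.88 ± 0.128 in CRLM1-OE, Ctrl and Anti, and its log2 fold change was -1.54 (standard error 0.39) against Ctrl and -2.78 (standard error 0.31) against Anti.

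CCL20, the CCR6 ligand, had 13, 3 and 10 counts in CRLM1-OE, 18, 21 and 18 in Ctrl and 31, 58 and 18 in Anti. CRLM1-OE samples were lower than all others, and Anti overlapped Ctrl, with Anti replicate 2 far above the rest. The FPKM was 0.227 ± 0.121 (SD, n = 3), 0.527 ± 0.0907 and 0.99 ± 0.562 in CRLM1-OE, Ctrl and Anti, and the log2 fold change was -1.25 (standard error 0.40) against Ctrl and -2.10 (standard error 0.34) against Anti. Without CRLM1-OE replicate 2, the value against Ctrl was -0.92 and the call was lost.

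CCL28, the mucosal plasma cell attractant, had 9, 5 and 5 counts in CRLM1-OE, 25, 23 and 24 in Ctrl and 32, 33 and 23 in Anti. The CRLM1-OE samples were below both controls, which overlapped each other. Its FPKM was 0.0433 ± 0.0153 (SD, n = 3), 0.167 ± 0.0153 and 0.203 ± 0.0306 in the same order. The log2 fold change was -2.02 (standard error 0.40) against Ctrl and -2.25 (standard error 0.38) against Anti.

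Under the thresholds of the study (an adjusted p of at most 0.05 together with a change of 2-fold or more, edgeR's quasi-likelihood test), 5 of the 8 ligands were called lower in CRLM1-OE than in Ctrl, where 0.915% of the 29846 genes tested were called lower, and 0 were called higher, where 2.5% of genes were. With limma on log2(FPKM + 0.1), 1 ligand was called lower instead of 5. All 8 were lower at the adjusted p alone, as were 16.8% of all genes tested. Against Anti, 7 of 8 were called lower (2.56% of 30183 genes) and 0 higher (3.09%), and all 8 were lower at the adjusted p alone (18.5% of genes). Since the CRLM1-OE samples took part in choosing the genes, nothing is read from the counts of either comparison. The zero counts of higher ligands were 0 as well at an unadjusted p under 0.05, with DESeq2 and with limma on log2(FPKM + 0.1). The median log2 fold change of the 8 ligands was -1.16 against Ctrl and -1.79 against Anti, beside 0.017 and -0.023 for all genes tested.

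**Figure D3:**
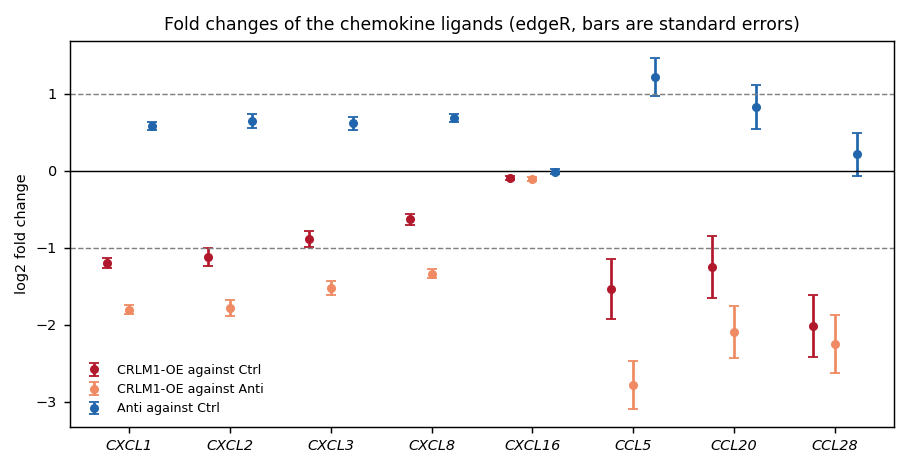
Log2 fold changes (y axis, edgeR) of the 8 chemokine ligands (x axis) in the 3 comparisons, shown in 3 colours, with bars for standard errors and dashed lines at a 2-fold change. CXCL16 lies near 0 in each comparison, and the other ligands are below 0 for CRLM1-OE against both controls.

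The difference between the controls bears on which of them a value of CRLM1-OE is read against. This comparison shares its samples with the other 2 and is described in the same way. In Anti against Ctrl, the log2 fold change was 0.68 (standard error 0.056) for CXCL8, 0.64 (standard error 0.091) for CXCL2, 0.62 (standard error 0.084) for CXCL3 and 0.58 (standard error 0.050) for CXCL1. Each of these ligands was higher in 3 of 3 Anti samples than in every Ctrl sample, and each stayed under the 2-fold limit. How many of all genes separate the controls in this way was not counted.

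CCL5 was the one ligand called in Anti against Ctrl, at a log2 fold change of 1.21 (standard error 0.25). This call rested on Ctrl replicate 2, without which the value was 0.89. CCL20 had 0.83 (standard error 0.28), and without Anti replicate 2 it had 0.28. The values of CCL28 (0.22, standard error 0.28) and CXCL16 (-0.011, standard error 0.029) were within their standard errors of 0. Thus 1 of 8 ligands was called higher, where 0.683% of the 29714 genes tested were called, and 6 were higher at the adjusted p alone (11.5% of genes), counts from which nothing is read. None was called lower (0.38% of genes), with 0 lower at an unadjusted p under 0.05 in edgeR and 0 called lower by DESeq2 or limma. The median of the 8 ligands was 0.63, beside 0.0047 for all genes.

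Levels were also compared between the ligands, on the FPKM scale, which accounts for length. In Ctrl the order was CXCL16 (45.5), CXCL1 (18.6), CXCL8 (7.76), CXCL3 (6.41), CXCL2 (4.73), CCL20 (0.527), CCL5 (0.35) and CCL28 (0.167). In Ctrl the samples of CXCL8 and CXCL3, of CXCL3 and CXCL2, of CCL20 and CCL5, and of CCL5 and CCL28 overlapped, while the other neighbours did not. Within each Ctrl sample, CXCL8 was above CXCL3 and CXCL3 above CXCL2. CCL20 and CCL5, and CCL5 and CCL28, changed order between Ctrl samples. The order of the means was the same in CRLM1-OE and in Anti, where only the samples of CCL20 and CCL5 overlapped. Among 16962 protein-coding genes, CXCL16 was at percentiles 93.6, 93.6 and 94.1 for CRLM1-OE, Ctrl and Anti, and CXCL1 at percentile 73.3, 85.4 and 90.4.

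Across the 9 samples, the log2 levels of CXCL1, CXCL2, CXCL3 and CXCL8 had Pearson r between 0.941 (CXCL2 and CXCL8) and 0.977 (CXCL2 and CXCL3). CXCL16 had r from 0.41 with CCL5 to 0.847 with CCL20. The points fall into 3 groups and share their libraries, so r mainly reflects the group means, and it is given as a description. Among 11701 genes averaging 100 or more counts, the profiles most like CXCL1 were those of SEMA4B, SFPQ and ATF5, each with r = 0.999. CXCL2 was nearest to CCDC71 (0.992), TMEM14B (0.991) and HCG18 (0.990), and CXCL3 to MESDC2 (0.995), LTV1 (0.992) and CATSPER2P1 (0.990). CXCL8 was nearest to ZNF623, PWP1 and SON (0.997, 0.997 and 0.996), and CXCL16 to BDH2, MPHOSPH6 and ATAD2B (0.926, 0.922 and 0.917).

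Profiles of the CC ligands rest on few counts. CCL5 was nearest to PPAN-P2RY11 (0.987), FAM212B (0.987) and TST (0.980), CCL20 to AMZ2 (0.969), HYAL2 (0.952) and YAE1D1 (0.948), and CCL28 to IFIH1 (0.997), MYL9 (0.995) and EIF2S2 (0.993), of 11702 genes. The other ELR ligands were not among the nearest genes of CXCL1, since CXCL2 ranked 609, CXCL3 815 and CXCL8 850 by r.

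Apart from CCR10, the receptors of these ligands were nearly silent in the same cells. The receptor list and those below were chosen with earlier results of these data known, so p-values of their genes are a description. Of 10 receptor genes, 6 were listed, and CCR10, the CCL28 receptor, was the one with a mean count of at least 10. It had 0.51, 0.47 and 0.51 FPKM in CRLM1-OE, 0.69, 0.57 and 0.93 in Ctrl and 0.69, 0.63 and 0.49 in Anti, so that CRLM1-OE was below Ctrl and overlapped Anti. Its log2 fold change was -0.66 (standard error 0.19, edgeR adjusted p = 0.0018) against Ctrl, -0.33 (adjusted p = 0.207) against Anti and -0.35 (adjusted p = 0.158) in Anti against Ctrl. The value against Ctrl did not pass the test without Ctrl replicate 3 (-0.45, adjusted p = 0.0898). CXCR1 and CXCR2 had at most 8 counts in any sample. No receptor was called in the 3 comparisons by edgeR, DESeq2 or limma, and at an unadjusted p under 0.05 edgeR gave 1 lower against Ctrl, 1 higher against Anti and 1 lower in Anti against Ctrl.

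Of 36 other chemokine ligands, 18 were listed and none was called in any comparison by edgeR, DESeq2 or limma. At an unadjusted p under 0.05, edgeR gave 0 against Ctrl, 1 higher and 3 lower against Anti, and 2 higher in Anti against Ctrl. CCL22 and CCL26, named after their values were seen, were the listed ones with a mean count of at least 10. CCL22, which attracts regulatory T cells, had 15, 23 and 15 counts in CRLM1-OE, 21, 9 and 23 in Ctrl and 37, 35 and 28 in Anti, and only Anti stood apart from the others. It was lower in CRLM1-OE than in Anti (log2 fold change -0.96, standard error 0.30, edgeR adjusted p = 0.00387) and higher in Anti than in Ctrl (0.84, standard error 0.29, adjusted p = 0.0185), while CRLM1-OE against Ctrl gave -0.096 (adjusted p = 0.867). CCL26, an eosinophil attractant, had between 15 and 33 counts, and its groups overlapped. CXCL5 and CXCL6, the ELR neighbours within the chromosome 4 cluster, had at most 1 count, so the cluster was expressed in part.

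Cytokines that act upstream of these ligands were examined with their receptors, 23 of 24 genes being listed. In this list and the next ones, the named genes are those called in a comparison, so their p-values describe selected genes. With filterByExpr, adjusted p values of abundant genes were many orders of magnitude larger, so nothing is read from the size of very small values. TNF, an inducer of NF-kB, had 6, 3 and 3 counts in CRLM1-OE, 18, 18 and 20 in Ctrl and 63, 38 and 41 in Anti. LTB, the membrane-bound TNF family member lymphotoxin beta, had 8, 3 and 5 counts in CRLM1-OE, 32, 52 and 52 in Ctrl and 127, 101 and 86 in Anti. Both genes were lowest in CRLM1-OE and highest in Anti, with no overlap between groups. In CRLM1-OE both lay at or near the floor of 3 counts, so the size of their fold changes is uncertain. The log2 fold change of TNF was -2.31 (standard error 0.48, edgeR adjusted p = 9.71e-06) against Ctrl, -3.58 (adjusted p = 5.79e-21) against Anti and 1.26 (adjusted p = 1.69e-05) in Anti against Ctrl. For LTB the values were -3.19 (standard error 0.35, adjusted p = 2.38e-18), -4.32 (adjusted p = 1.89e-51) and 1.12 (adjusted p = 6.71e-09), the last being 0.82 without Ctrl replicate 1, under the 2-fold limit.

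TLR3, the sensor of double-stranded RNA, had 49, 37 and 46 counts in CRLM1-OE, 96, 97 and 91 in Ctrl and 167, 128 and 129 in Anti, again without overlap. It fell by 1.22 on the log2 scale against Ctrl (standard error 0.19, edgeR adjusted p = 6.71e-10) and by 1.74 against Anti (adjusted p = 1.11e-24), and in Anti against Ctrl it had 0.50 (adjusted p = 0.00208), under the 2-fold limit. IL6ST, the shared subunit of IL-6 family receptors, was called against Anti alone (-1.09, adjusted p = 6.78e-82), and had -0.97 (adjusted p = 4.48e-60) against Ctrl. In this list 3 genes were called lower (0.915% of all genes tested) and 0 higher (2.5%) against Ctrl. Against Anti 4 were called lower (2.56%) and 0 higher (3.09%), and in Anti against Ctrl 2 were called higher (0.683%) and 0 lower (0.38%). At an unadjusted p under 0.05, edgeR gave 5 higher and 11 lower against Ctrl and against Anti, and 10 higher and 2 lower in Anti against Ctrl. DESeq2 called 0 higher and 3 lower against Ctrl, and 1 higher and 4 lower against Anti. With limma these were 1 and 2 against Ctrl, and 0 and 3 against Anti, and both tools called 2 higher in Anti against Ctrl. At the adjusted p alone, 11 were lower and 4 higher against Ctrl, beside 16.8% of all genes lower and 15% higher, and 11 were lower and 5 higher against Anti, beside 18.5% lower and 17.1% higher.

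**Figure D4:**
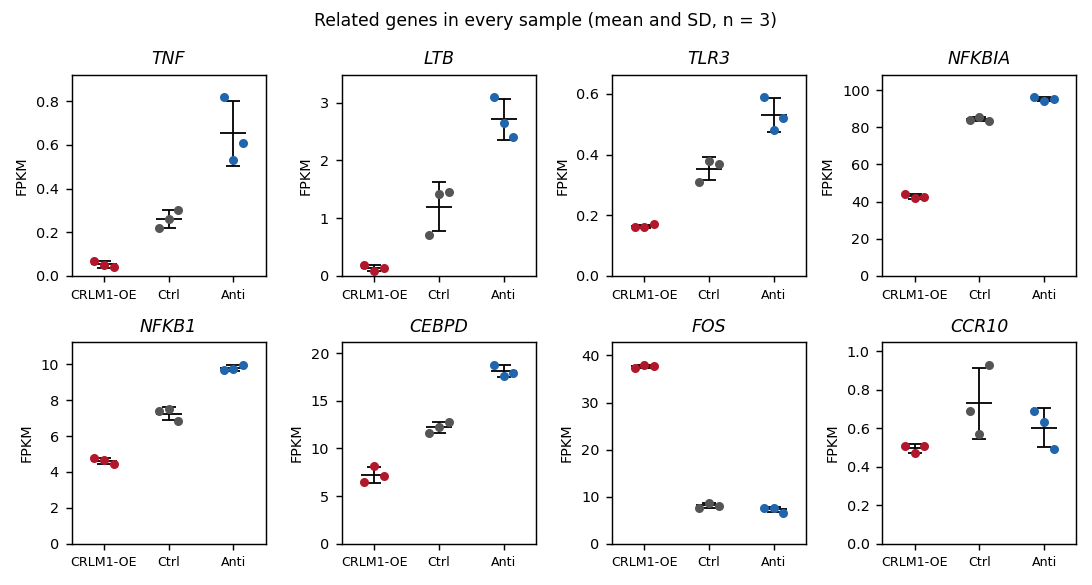
FPKM (y axis, linear from 0, a separate scale for each gene) of 8 related genes in each sample, by group on the x axis. Points are samples and bars give the mean and SD (n = 3). TNF, LTB, TLR3, NFKBIA, NFKB1 and CEBPD are lowest in CRLM1-OE, FOS is highest there, and the CCR10 samples of Ctrl and Anti overlap.

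Among 17 NF-kB subunits and regulators, 1 was called lower against Ctrl (0.915% of all genes tested) and 2 against Anti (2.56%), and 0 were called in Anti against Ctrl. With limma on log2(FPKM + 0.1), 0 were called lower against Ctrl. NFKBIA, the inhibitor that NF-kB itself induces, had 44.18, 41.83 and 42.56 FPKM in CRLM1-OE, 84.14, 85.38 and 83.45 in Ctrl and 96.21, 94.18 and 95.42 in Anti. The groups did not overlap, and Ctrl and Anti lay close to each other. Its log2 fold change was -1.09 (standard error 0.029) against Ctrl and -1.20 (standard error 0.026) against Anti, both with an edgeR adjusted p of at most 1e-300. With filterByExpr the adjusted p against Ctrl was 9.46e-24. With library totals the value against Ctrl was -0.95, under the 2-fold limit.

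NFKB1, which encodes the p50 precursor, had 4.78, 4.67 and 4.44 FPKM in CRLM1-OE, 7.42, 7.49 and 6.84 in Ctrl and 9.70, 9.74 and 9.98 in Anti. It was lower in CRLM1-OE than in both controls, with log2 fold changes of -0.76 (standard error 0.046, edgeR adjusted p = 1e-60) against Ctrl and -1.13 (standard error 0.042, adjusted p = 3.18e-156) against Anti. In the whole list 10 genes were lower and 3 higher at the adjusted p alone against Ctrl, beside 16.8% of all genes lower and 15% higher. Against Anti the numbers were likewise 10 and 3, beside 18.5% and 17.1%. In Anti against Ctrl, 5 were higher and 5 lower at the adjusted p alone, beside 11.5% of all genes higher and 12.2% lower, and neither DESeq2 nor limma called any. At an unadjusted p under 0.05, edgeR gave 5 higher and 6 lower there. Against Ctrl it gave 3 higher and 10 lower, and against Anti 4 higher and 11 lower. The list's median was -0.32 against Ctrl, -0.28 against Anti and 0.0095 in Anti against Ctrl.

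The AP-1, C/EBP and IRF factors moved in both directions. FOS, a subunit of AP-1, had 37.25, 37.89 and 37.86 FPKM in CRLM1-OE, 7.61, 8.71 and 8.06 in Ctrl and 7.62, 7.69 and 6.63 in Anti, far higher in CRLM1-OE than in either control. The log2 fold change of FOS was 2.10 (standard error 0.038) against Ctrl and 2.32 (standard error 0.037) against Anti, and that of FOSB, its close relative, 2.32 (standard error 0.066) and 2.18 (standard error 0.063), all with an edgeR adjusted p of at most 2.27e-269 but for FOSB against Anti (1.89e-256). CEBPD, which cooperates with NF-kB at inflammatory genes, had 6.48, 8.15 and 7.15 FPKM in CRLM1-OE, 11.63, 12.22 and 12.78 in Ctrl and 18.79, 17.62 and 17.97 in Anti. It was lower in CRLM1-OE in every sample, with -0.87 (standard error 0.056, adjusted p = 5.3e-53) against Ctrl and a called -1.38 (standard error 0.050, adjusted p = 3.67e-164) against Anti. Of the 15 factors, 2 were called higher (2.5% of all genes tested) and 0 lower (0.915%) against Ctrl, 2 higher (3.09%) and 1 lower (2.56%) against Anti, and 0 in Anti against Ctrl. At an unadjusted p under 0.05, edgeR gave 8 higher and 6 lower against Ctrl and against Anti. In Anti against Ctrl it gave 5 higher and 9 lower, and neither DESeq2 nor limma called a gene there.

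Of 14 factors that control the decay of unstable mRNAs such as those of the ELR ligands, none was called in any comparison by edgeR, DESeq2 or limma. At an unadjusted p under 0.05, edgeR gave 5 higher and 9 lower against Ctrl, 2 higher and 9 lower against Anti, and 5 higher and 9 lower in Anti against Ctrl. At the adjusted p alone, 4 were higher and 8 lower against Ctrl, beside 15% of all genes higher and 16.8% lower. Against Anti the numbers were 2 and 8, beside 17.1% and 18.5%, and in Anti against Ctrl 5 and 8, beside 11.5% and 12.2%. Among 12 genes that cleave or anchor chemokines, MMP7, an epithelial metalloproteinase, was the 1 gene called against Ctrl (0.915% of all genes tested were called lower) and against Anti (2.56%), lower in both. MMP7 had 0.87, 0.54 and 0.75 FPKM in CRLM1-OE, 1.36, 1.81 and 1.26 in Ctrl and 1.74, 2.26 and 2.23 in Anti, and CRLM1-OE was below both controls, which overlapped. Its log2 fold change was -1.12 (standard error 0.21, edgeR adjusted p = 4.3e-07) against Ctrl, -1.54 (standard error 0.19, adjusted p = 1.46e-14) against Anti and 0.40 (adjusted p = 0.0591) in Anti against Ctrl. The call against Ctrl was lost without Ctrl replicate 2 (-0.95) or CRLM1-OE replicate 2 (-0.96), and with limma on log2(FPKM + 0.1).

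**Figure D5:**
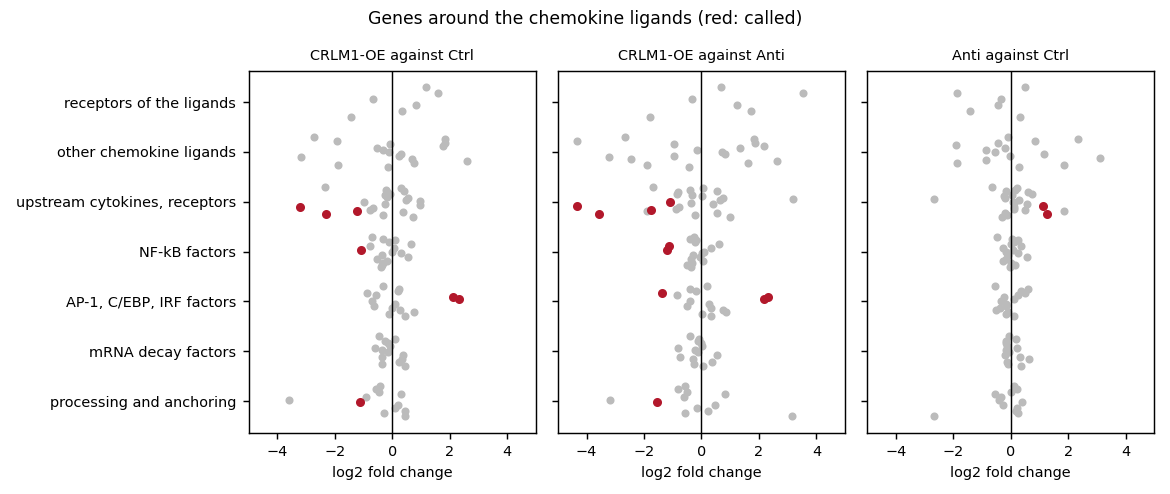
Log2 fold changes (x axis, edgeR) of the tested genes of 7 lists around the chemokine ligands (rows), in the 3 comparisons (panels). Red points passed both thresholds for a call, and they include TNF and LTB on the left and FOS and FOSB on the right of both CRLM1-OE panels.

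Of the marker lists, CEACAM5, an epithelial surface glycoprotein, was called lower against Ctrl on 0 counts in every CRLM1-OE sample and 5, 4 and 0 in Ctrl. CD14, a monocyte marker, was called higher against Anti, on 15, 4 and 4 counts in CRLM1-OE and 3, 1 and 0 in Anti. Both calls rest on a handful of reads, and both were lost when limma was used on log2(FPKM + 0.1) and with DESeq2.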

How the data were processed

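RNA of 9 HCT116 samples (3 groups of 3, by the labels) was analysed. The authors trimmed reads with the FASTX-Toolkit, dropped those under 16 nt, aligned the rest to GRCh38 (Gencode version 23) with TopHat2 and 4 mismatches, and deposited, for each gene, raw counts of the reads that mapped uniquely. The FPKM values deposited beside them were scaled for gene length and mapped fragments, to 2 decimals. Both tables hold only genes the authors took as expressed. The use of strand in counting is not given in the sources used here, so reads of overlapping antisense genes cannot be told apart.

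Total counts per sample were 33302292 to 44514692. Counts were tested with edgeR 4.0.16 in R 4.3.3 (TMM, quasi-likelihood) on the 6 samples of each comparison, over all genes with at least 1 count there, with Benjamini-Hochberg adjustment. Calls needed an adjusted p of at most 0.05 with a change of 2-fold or more, as in the study. Adjusted p values below 1e-300 are written as 1e-300. Standard errors are the absolute log2 fold change divided by the square root of the F statistic of the edgeR test. Fold changes of FPKM used log2(FPKM + 0.1) or log2(FPKM + 1), which understates changes of low genes. Alternatives were RLE factors, library totals, filterByExpr, DESeq2 1.42.0, limma 3.58.1 on FPKM, 1 fit over all 9 samples, a block for replicate number, each sample left out, and the adjusted p alone. The fits were tested on simulated data. An exact permutation test of 3 against 3 cannot go below 0.1 and was not used.

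The members and the 10 gene lists were chosen with earlier results of these data known. Named genes are the 8 members, list genes called in a comparison, receptors with a mean count of at least 10, marker genes, and the 3 genes nearest to each member by Pearson r of log2(CPM + 0.5). Promoters came from RefSeq (GRCh38.p14), with 6 of the 8 members matched, and gene positions from GENCODE version 44. Sequences were handled with Biopython 1.88, and figures drawn with matplotlib 3.10.9.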

Additional observations from a re-analysis of the deposited data

How the results depend on the processing

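The ligands called lower in CRLM1-OE against Ctrl numbered 5, and 1 with limma on log2(FPKM + 0.1) or on log2(FPKM + 1), and 8 at the adjusted p alone. Against Anti 7 were called lower, and 4 with limma on log2(FPKM + 1). In Anti against Ctrl 1 was called higher, 0 with limma on log2(FPKM + 1), 6 at the adjusted p alone, and between 0 (without Ctrl replicate 2) and 2 (without Anti replicate 3) with a replicate left out. A pseudocount compresses fold changes of low genes, and the cause of the other changes was not tested.

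CXCL16 reversed its sign against Ctrl with library totals (0.047) and with limma (0.019 and 0.018), and in Anti against Ctrl with library totals (0.094), limma (0.079 and 0.078) and with a replicate left out (-0.047 to 0.034). Library totals move the median log2 fold change of genes averaging 50 or more counts from -0.039 to 0.10 in CRLM1-OE against Ctrl and from -0.0032 to 0.10 in Anti against Ctrl. CCL22 against Ctrl reversed with library totals (0.045), limma (0.048 and 0.0087) and samples left out (-0.42 to 0.23). CCL26 reversed only with samples left out, from -0.53 to 0.065 against Ctrl, -0.35 to 0.13 against Anti and -0.46 to 0.18 in Anti against Ctrl.

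CCL20 in CRLM1-OE against Ctrl was not called with DESeq2, limma or without CRLM1-OE replicate 2. In Anti against Ctrl its log2 fold change was 0.28 without Anti replicate 2. CCL5, CXCL2 and CCL28 in CRLM1-OE against Ctrl were not called with limma, where only CXCL1 kept its call.

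Replicate numbers did not pair the samples. Deviations of same-numbered samples correlated between -0.033 and 0.078 (9 pairs), and of other samples between -0.046 and 0.075. With the replicate block, 5, 7 and 1 ligands were called, as without it. Counts per list were within 1.5 times the value given in 803 of 900 cases and moved in 97, of which 40 used the adjusted p alone. With filterByExpr the fold changes of the ligands and named genes moved little, while adjusted p values of abundant genes were many orders of magnitude larger. Depth limits CCL5, CCL20 and CCL28, with at most 58 counts in any sample.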
